A study of Arabidopsis thaliana with 14 samples.

Results

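The 22 cytochrome P450 genes described here were the genes whose symbol is CYP followed by a family number, a letter and a gene number, and which had a probe set of their own among the 13286 genes that the probe table used names in this way. The loci AT5G47990 and AT5G48000 were to be left out, but neither had such a probe set. Each of the 22 genes had 1 probe set, none of a type with shared sequence. They belong to 5 families, but 18 of the 22 are CYP71B genes, of 35 CYP71B genes in the TAIR10.1 gene table. The other 4 are CYP51G2, CYP78A9, CYP79A2 and CYP84A4. The gene table lists 225 genes with symbols of this form, so the data describe the CYP71B subfamily and a few other P450s, not the whole superfamily.

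Transcripts were measured in whole Arabidopsis thaliana seedlings at 7 dpg with 1-colour arrays. One group of 4 arrays came from yda seedlings, for which the labels give no ecotype. A second group of 4 came from seedlings with an N-terminal deletion of YDA (NB89), here NdelYDA, which some labels place in the Ler ecotype and describe as lacking stomata. The controls were 3 arrays of line CS9159 in the C24 ecotype and 3 arrays of Ler. YDA is a MAPKK kinase that restrains stomatal development, so the comparisons ask how P450 transcripts differ with loss (yda) or gain (NdelYDA) of its activity. The sources used here name neither the promoter behind NdelYDA nor the yda allele, and they do not say whether seedlings were pooled. The level of YDA itself was not analysed here. NdelYDA was set against Ler and yda against C24, the second pairing being read from the design. Because the ecotype of yda is not labelled, both mutants were also set against the other control.

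P450s are heme-thiolate monooxygenases, most of them anchored in the endoplasmic reticulum and supplied with electrons by NADPH-cytochrome P450 reductase. Plants use them to make and inactivate hormones and to build pigments, cuticle, lignin and defence compounds. CYP71B genes often lie next to each other in the genome, and the best known of them, PAD3, makes the phytoalexin camalexin. Of the genes with measured values here, CYP71B6 acts on indole-3-acetonitrile in the indole pathway of defence, CYP71B31 is known from floral linalool metabolism, CYP84A4 makes a precursor of arabidopyrones, CYP79A2 makes phenylacetaldoxime, and CYP78A9 promotes growth of fruits and seeds. The roles of most other CYP71B enzymes are not stated here.

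Correlations of log2 values between arrays of a group ran from 0.968 in C24 to 0.99 in NdelYDA. Signals from the 3′ and 5′ ends of GAPDH, an index of RNA integrity, had a mean ratio of 0.864 in yda (SD 0.08, n = 4) against 1.2 in C24 (SD 0.23, n = 3; two-sided exact permutation p = 0.0286, the smallest these groups allow). C24 replicate 1 had the highest ratio. Of 9 guard cell markers, 4 had a probe set of their own, and their summed intensity was 816.5 to 951.2 in NdelYDA, 3254 to 3531 in Ler, 1778 to 3525 in C24 and 6429 to 6879 in yda. The sum adds raw signals, so AT1G22690 is most of it in Ler, C24 and yda, and AT2G16630 is its largest part in NdelYDA. Of 8 mesophyll and 7 root hair markers, 1 each was measured. RCA, the mesophyll gene, was between 9998 and 12343 on every array and was not called in any comparison, and EXPA7, the root hair gene, fell in NdelYDA against Ler by 0.71 on the log2 scale (adjusted p = 0.00472). All 4 measured guard cell markers were called higher in yda against C24, and 3 of them (FMA, the regulator of guard cell fate, AT1G22690 and CHX20) lower in NdelYDA against Ler. The other, AT2G16630, was not called in NdelYDA against Ler (0.15, adjusted p = 0.575). None of the 6 measured markers was at 0, the lowest being CHX20 at 4.3. CHX20 was at 4.3 to 11.5 in C24 and 5.1 to 38.3 in NdelYDA, below the 30th percentile of every array (75.1 to 85.75). Its calls therefore compare with low signals. In yda it was at 46.6 to 82.4, under every Ler array. Ler was called above C24 for CHX20 (adjusted p = 1.2e-05) and FMA (adjusted p = 0.0374), not for AT1G22690 or AT2G16630. Markers of root endodermis, xylem and epidermis were not analysed here. The part of these shifts in the P450 values was not tested, and in whole seedlings fewer cells of a type and less RNA per cell cannot be told apart.

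Of the 22 genes, 15 passed the filter on low signal, which asked for an intensity above the 30th percentile of the array (75.1 to 85.75) on at least 3 of 14 arrays. They were 12 CYP71B genes, CYP51G2, CYP78A9 and CYP84A4, and CYP71 was the sole family with at least 4 tested members. The other 7 are described at the end. A gene was called where limma's adjusted p, over all 17210 probe sets tested, was under 0.05, and log2 changes are on the log2(intensity + 16) scale. Intensities of different probe sets are not compared, since each binds its own transcript with its own strength.

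**Figure D1:**
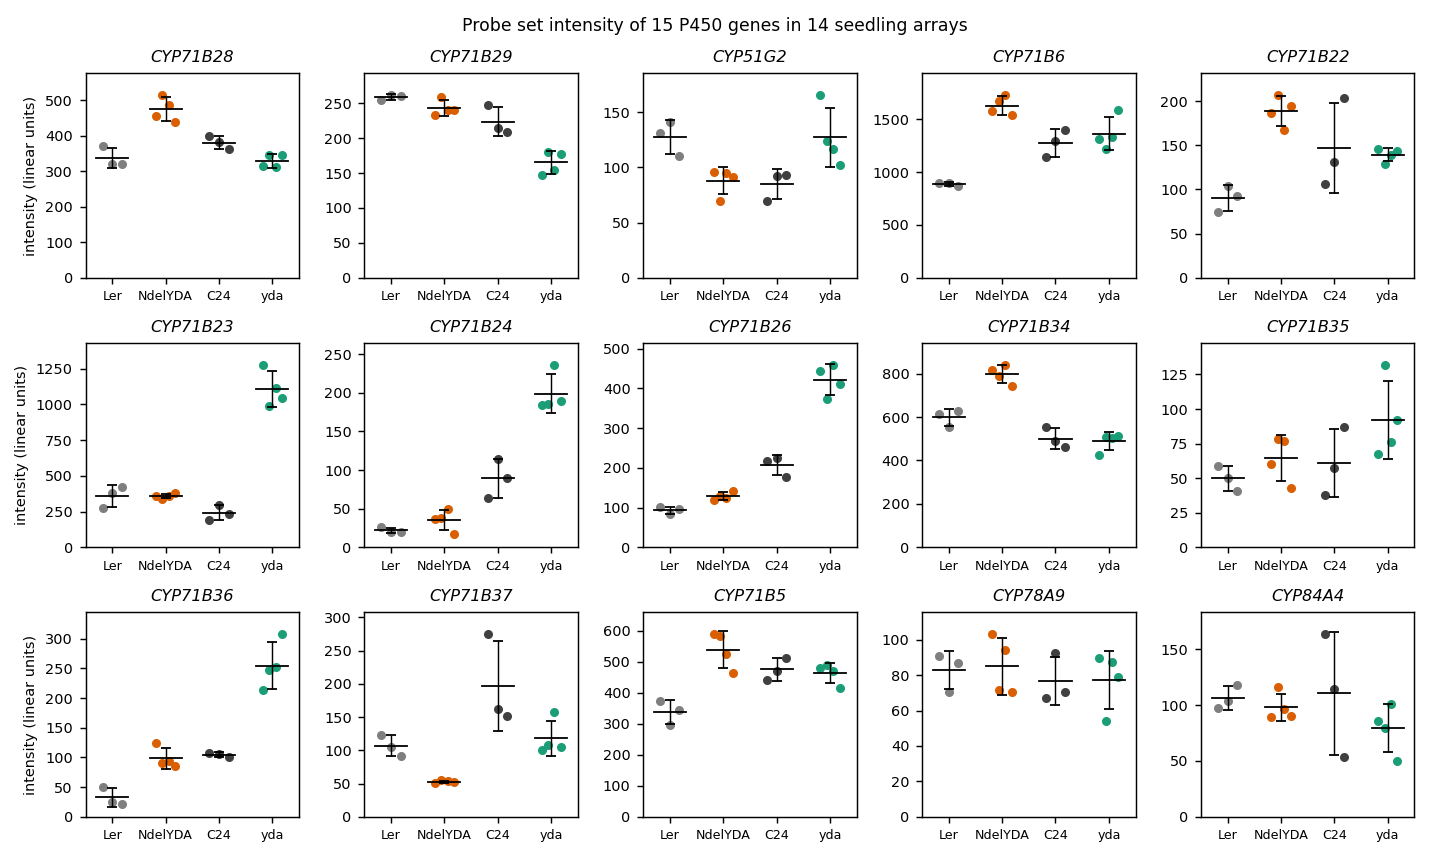
Intensity (linear units, y axis) of the 15 tested P450 genes on each of the 14 arrays. Points are arrays, the long bar is the group mean and the whiskers are 1 SD (n = 3 in Ler and C24, n = 4 in NdelYDA and yda). CYP71B23, CYP71B24, CYP71B26 and CYP71B36 are highest in yda, while CYP71B6, CYP71B28 and CYP71B34 are highest in NdelYDA.

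In yda seedlings, 4 CYP71B genes from 1 stretch of chromosome 3 gave a higher signal than in C24. CYP71B23 was at 1278.5, 989.5, 1116.5 and 1041.8 in the yda arrays, against 189.9, 295.4 and 235.8 in C24. Its log2 change of 2.14 (SE 0.15, adjusted p = 1.2e-08), a 4.42-fold difference, was the largest of all the P450 genes in this comparison. CYP71B36 was at 212.7, 246.5, 252.1 and 307.5 in yda against 108.1, 106 and 100.5 in C24, a log2 change of 1.15 (SE 0.18, adjusted p = 9.2e-05). Every yda array lay above every C24 array for both genes.

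CYP71B24 was at 184.3, 185.8, 236.5 and 189.5 in yda against 63.9, 114.1 and 89.5 in C24, a log2 change of 1.05 (SE 0.22, adjusted p = 0.00103). It exceeded the filter in all 4 yda arrays and 2 C24 arrays but in no Ler or NdelYDA array, so it was tested because of the groups in which it is high. CYP71B26 stood at 444, 372.7, 459.9 and 410.9 in yda against 217.7, 225.8 and 177.7 in C24, a log2 change of 0.98 (SE 0.11, adjusted p = 3.9e-06). For these genes too the groups did not overlap. The signals of all 4 genes were also higher in each yda array than in each Ler array. Against Ler the log2 change was 1.60 for CYP71B23 and 2.00 for CYP71B26, and the higher adjusted p was 1.1e-07. CYP71B24 and CYP71B36 were also called (adjusted p = 6.6e-08 and 7.2e-09), but their Ler signals of 19.5 to 26 and 22 to 49.9 were below the 30th percentile on every array, so the size of the change is set by the pseudocount and is not given. The rise of these 4 genes in yda was therefore called against either ecotype. Counted against Ler, 8 of the 15 P450 genes were higher in yda and 2 lower, beside 24.2% and 35.5% of all probe sets.

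CYP71B29, a chromosome 1 gene, went the other way. It was at 147.5, 180.8, 155.1 and 178 in yda and at 247.2, 214.7 and 209.5 in C24, and the groups did not overlap. It fell by 0.40 on the log2 scale (SE 0.096, adjusted p = 0.00277), and it was also lower against Ler (-0.61, adjusted p = 4.6e-05). CYP71B37, at the end of the chromosome 3 run, was at 100.7, 107.7, 157.7 and 105.5 against 274.8, 162.7 and 151.9 in C24, where replicate 1 stood far above the others. Its log2 change was -0.64 (SE 0.19, adjusted p = 0.0112). Without C24 replicate 1 it was -0.39 and not called (adjusted p = 0.0802), and against Ler it was 0.11 (adjusted p = 0.623).

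In all, 5 of the 15 tested P450 genes were called higher in yda than in C24 and 2 lower, against 19.1% higher and 24.4% lower among all probe sets tested. With the array medians made equal, the calls over all probe sets were 4003 higher and 3426 lower in place of 3279 and 4191, and the P450 genes again had 5 higher and 2 lower. The median log2 change of the 15 genes was 0.00, beside -0.03 for all probe sets. The fifth call higher was CYP51G2, annotated as a transcribed pseudogene of sterol 14-demethylase, at 165.4, 124.1, 116.4 and 102.4 against 69.3, 91.8 and 93.2. Its log2 change of 0.50 (SE 0.16, adjusted p = 0.021) was not called without C24 replicate 1 (0.38, adjusted p = 0.0965) or without yda replicate 1 (0.38, adjusted p = 0.0692), nor in a fit of the yda and C24 arrays alone (adjusted p = 0.0534). Against Ler it was -0.02 (adjusted p = 0.941).

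The remaining 8 tested genes were not called in yda against C24, though some were against Ler. CYP71B6, CYP71B22, CYP71B34 and CYP71B5 had log2 changes between -0.03 and 0.09, with the widest 95% interval for CYP71B22, from -0.38 to 0.33. CYP71B28 had a change of -0.20 (adjusted p = 0.0628), although every yda array lay below every C24 array. CYP71B35 had a change of 0.51 (95% interval -0.01 to 1.03, adjusted p = 0.109). It became a call without C24 replicate 3 (0.74, adjusted p = 0.0295). CYP84A4 was at 163.6, 114.7 and 53.4 in C24, and its change of -0.33 (adjusted p = 0.318) was called without C24 replicate 3, the lowest of them (-0.71, adjusted p = 0.0124). CYP78A9 had a change of 0.00 (95% interval -0.38 to 0.39). Against Ler, yda was called higher for CYP71B6 (0.60), CYP71B22 (0.56, adjusted p = 0.00846) and CYP71B5 (0.44, adjusted p = 0.00146). CYP71B35 was called higher too (adjusted p = 0.0245), from Ler signals all below the 30th percentile, and CYP71B34 was called lower (-0.29). CYP71B28, CYP78A9 and CYP84A4 were not called against Ler either.

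**Figure D2:**
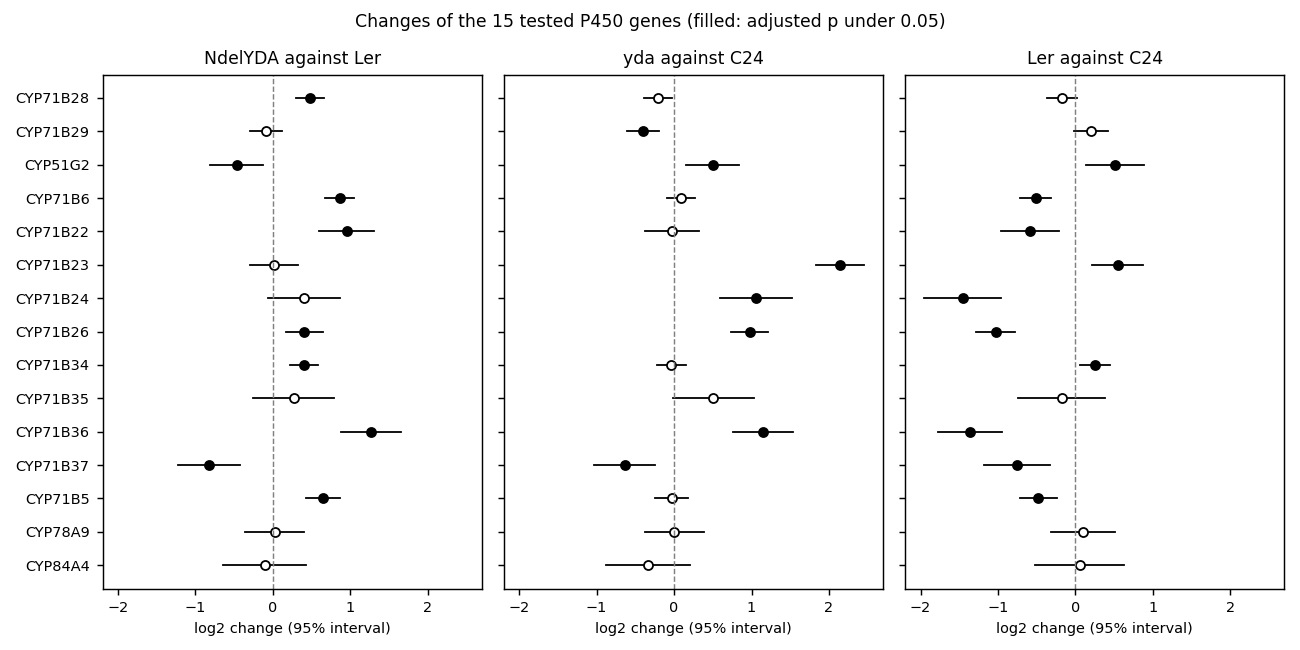
Log2 change (x axis) of the 15 tested P450 genes in 3 comparisons, with 95% intervals from the limma fit. Filled points have an adjusted p under 0.05. The largest rise in yda is CYP71B23 at 2.14. In NdelYDA, CYP71B36 is at 1.27 from Ler signals below the 30th percentile, and its rank above CYP71B6 at 0.86 turns with a pseudocount of 64.

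In NdelYDA seedlings 7 CYP71B genes were called higher than in Ler and 1 lower, and CYP71B26 and CYP71B36 were among those called higher in yda too. CYP71B6, the enzyme that acts on indole-3-acetonitrile, was at 1576.8, 1674.4, 1729.5 and 1541.9 in NdelYDA against 897.8, 896.5 and 870.5 in Ler. This was a log2 change of 0.86 (SE 0.087, adjusted p = 1.0e-06), or 1.82-fold. CYP71B34 was at 816.4, 790.4, 841.7 and 744.5 against 613, 556 and 628.7, a log2 change of 0.40 (SE 0.087, adjusted p = 0.00175). Neither gene was called in yda against C24. Against Ler, yda was called higher for CYP71B6 (0.60, adjusted p = 1.7e-05) and lower for CYP71B34 (-0.29, adjusted p = 0.00973), with no overlap between arrays.

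CYP71B28 was at 457.2, 514.6, 487.7 and 438 in NdelYDA against 370, 319.1 and 321.8 in Ler, a log2 change of 0.47 (SE 0.085, adjusted p = 0.000373). For CYP71B6, CYP71B34 and CYP71B28 every NdelYDA array lay above every Ler and every C24 array. Against C24 their log2 changes were 0.35, 0.66 and 0.30, and the highest adjusted p was 0.00817. CYP71B37 was lower, at 51.1, 55, 53.1 and 52.5 against 123, 105.6 and 91.5 in Ler, a log2 change of -0.82 (SE 0.19, adjusted p = 0.00268). Its level in NdelYDA was below the 30th percentile on each array, so the size depends on the pseudocount (-0.54 with 64 and -0.99 with 1, called with each). It was lower against C24 as well (adjusted p = 4.4e-06). These 4 genes were the ones called in the same direction against both ecotypes.

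The other calls in NdelYDA rested on the Ler control. CYP71B36 went from 49.9, 25.5 and 22 in Ler, all below the 30th percentile, to 123.5, 90.1, 94 and 85.7 in NdelYDA, a log2 change of 1.27 (SE 0.18, adjusted p = 4.7e-05). That size depends on the pseudocount, being 0.76 with 64 and 1.65 with 1, called with each, and with 64 it was below the 0.83 of CYP71B6. Its C24 values of 108.1, 106 and 100.5 lay among those of NdelYDA, and against C24 the change was -0.09 (adjusted p = 0.712). CYP71B22 was at 186.3, 206.8, 167 and 194.6 against 74.2, 104 and 92.6, a log2 change of 0.95 (SE 0.17, adjusted p = 0.000289), and against C24 it was 0.37 (adjusted p = 0.0789). CYP71B5 was at 588.2, 581, 522.9 and 462.9 against 373.4, 294.3 and 344.9, a log2 change of 0.65 (SE 0.10, adjusted p = 0.000118), and against C24 it was 0.17 (adjusted p = 0.181). In each of the 3 the NdelYDA and Ler arrays did not overlap.

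CYP71B26 turned direction between the controls. It was at 118.2, 130, 124.3 and 142 in NdelYDA, above the 100.8, 82.8 and 95.5 of Ler (log2 change 0.41, SE 0.11, adjusted p = 0.0103) and below the 177.7 to 225.8 of C24 (-0.62, adjusted p = 0.000303). Without Ler replicate 2 the first of these calls was lost (0.34, adjusted p = 0.058). CYP51G2 was at 95.9, 69.8, 95 and 90.8 in NdelYDA against 130.8, 141 and 110.4 in Ler. Its log2 change of -0.47 (SE 0.16, adjusted p = 0.0372) lost its call without any 1 of Ler replicates 1 and 2 and NdelYDA replicates 2 and 4 (adjusted p 0.0562 to 0.14) with quantile or median scaling (adjusted p 0.0733 and 0.0501), and with no filter (adjusted p = 0.0544). It was 0.04 against C24 (adjusted p = 0.846).

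Counted together, 7 of the 15 genes were called higher in NdelYDA than in Ler and 2 lower, against 15.4% higher and 16.6% lower among all probe sets tested. All 7 were among the 12 tested CYP71B genes. The median log2 change of the 15 was 0.40, beside -0.01 for all probe sets, and it was 0.12 with C24 as the control. There 4 genes were higher and 3 lower, beside 24.5% and 20.9% of all probe sets. CYP71B23 was at 357.9, 339.3, 357.4 and 379.5 in NdelYDA, within the 272.7 to 423.4 of Ler, with a log2 change of 0.02 (95% interval -0.29 to 0.33, adjusted p = 0.945). Against C24 it was called higher in NdelYDA (0.57, adjusted p = 0.00467), with every NdelYDA array above every C24 array. CYP71B24 (0.40, adjusted p = 0.186) was not called, and it was called without NdelYDA replicate 4 (0.60, adjusted p = 0.028). Its Ler and NdelYDA signals were all below the 30th percentile, so this change compares low signals only. Against C24, CYP71B24 was lower in NdelYDA (adjusted p = 0.001), with every NdelYDA array below every C24 array. CYP71B29, CYP71B35, CYP78A9 and CYP84A4 were not called, with log2 changes between -0.11 and 0.27.

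**Figure D3:**
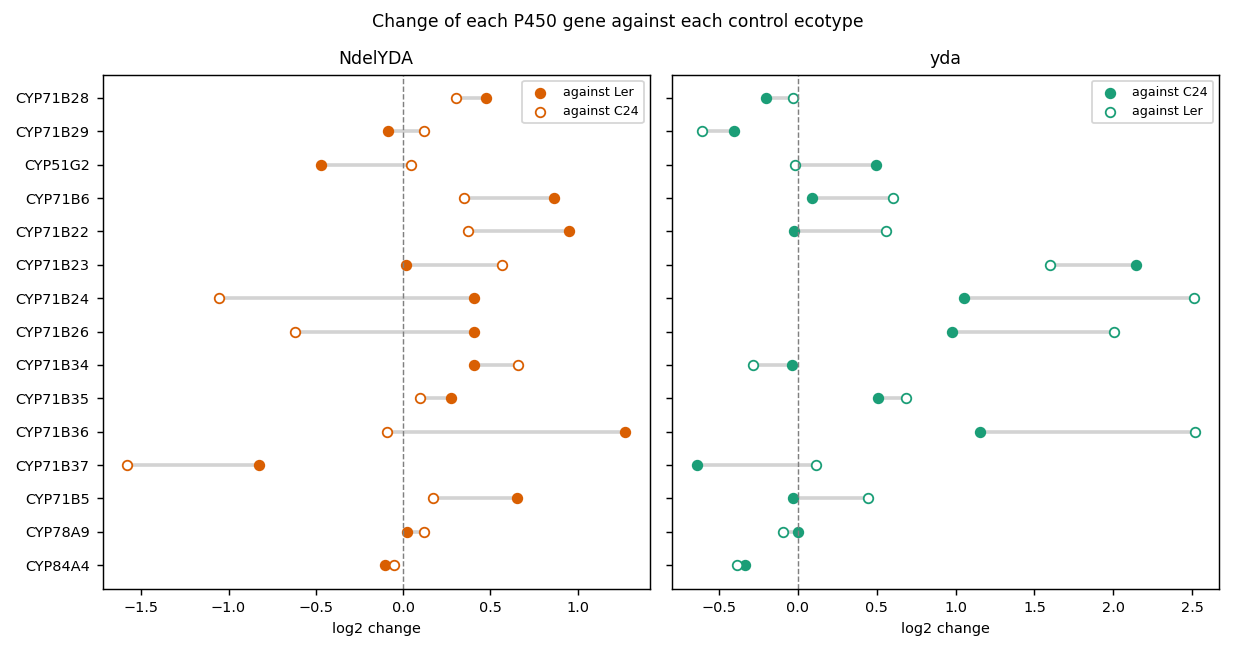
Log2 change (x axis) of each tested P450 gene in NdelYDA (left) and yda (right) against each control ecotype, with filled points for the control of the main comparison and open points for the other one. In NdelYDA the points of CYP71B24, CYP71B26, CYP71B36, CYP51G2 and CYP71B29 fall on opposite sides of 0. Against C24, CYP71B36, CYP51G2 and CYP71B29 are near 0 there (-0.09, 0.04 and 0.12, not called), and CYP71B24 has low signals in NdelYDA and Ler. In yda the points of CYP71B22, CYP71B37, CYP71B5, CYP51G2 and CYP78A9 fall on opposite sides of 0. CYP71B22, CYP71B5 and CYP78A9 are near 0 against C24 (-0.02, -0.03 and 0.00, not called). Against Ler, CYP51G2 (-0.02), CYP78A9 (-0.09) and CYP71B37 (0.11) were not called. Those of CYP71B24, CYP71B26 and CYP71B36 stay above 0.

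The mutant effects share no array and were compared directly, as the NdelYDA change minus the yda change. They differed most for CYP71B23, by -2.13 (SE 0.21, adjusted p = 1.4e-06), the yda rise being the larger. CYP51G2, called lower in NdelYDA and higher in yda, differed by -0.96 (SE 0.23, adjusted p = 0.00399) and was the sole P450 gene called in opposite directions. The yda call was lost without C24 replicate 1 or yda replicate 1. The NdelYDA call was lost without any 1 of Ler replicates 1 and 2 and NdelYDA replicates 2 and 4. Against the other control CYP51G2 was called in neither mutant (0.04 in NdelYDA and -0.02 in yda). CYP71B26, higher in both mutants against their own controls, differed by -0.57 (adjusted p = 0.0115). The effect in NdelYDA was the higher for CYP71B22 (0.98, adjusted p = 0.0041), CYP71B6 (0.77, adjusted p = 0.000156), CYP71B5 (0.68, adjusted p = 0.00172), CYP71B28 (0.68, adjusted p = 0.000394) and CYP71B34 (0.44, adjusted p = 0.0114). Thus 5 genes were higher and 3 lower in this difference, against 17.6% and 15.8% of all probe sets. Directly against yda, NdelYDA was called higher for CYP71B22 (0.40), CYP71B6 (0.26), CYP71B28 (0.51) and CYP71B34 (0.69). CYP71B5 was not called there (0.21, adjusted p = 0.0723). The difference of effects also takes in the change between the controls. Ler was called lower than C24 for CYP71B22, CYP71B6 and CYP71B5, and higher for CYP71B34.

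CYP71B36 was called higher in both mutants against their own controls and CYP71B37 lower in both, and the differences of effects were 0.12 (95% interval -0.43 to 0.67) and -0.18 (95% interval -0.75 to 0.38). Those intervals still allow differences of about the size of some called changes, and with a pseudocount of 64 the difference for CYP71B36 was -0.15 (adjusted p = 0.536). For CYP71B24 the difference was -0.65 (SE 0.31, adjusted p = 0.124), and with a pseudocount of 64 it was called (-0.59, adjusted p = 0.0199). The Ler and NdelYDA signals of CYP71B24 were all below the 30th percentile, so the NdelYDA part of this difference compares low signals only. Between the mutants themselves, which may also differ in ecotype, NdelYDA was below yda for CYP71B26 (-1.60), CYP71B23 (-1.58) and CYP71B36 (-1.24), and for CYP71B24 and CYP71B37, whose NdelYDA signals were all below the 30th percentile. Each was called, with no overlap between arrays. Of the 15 genes, 5 were higher and 6 lower in NdelYDA than in yda, beside 33.6% and 25.7% of all probe sets.

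The control ecotypes differed in many of the same genes, and this comparison shares its arrays with those above. Ler was lower than C24 for CYP71B24, at 26, 19.6 and 19.5 against 63.9, 114.1 and 89.5 (log2 change -1.46, SE 0.23, adjusted p = 0.000137). CYP71B36 (-1.36, SE 0.19, adjusted p = 4.3e-05) and CYP71B26 (-1.03, SE 0.12, adjusted p = 5.3e-06) were also lower. The ecotypes did not overlap in any of the 3. The Ler signals of CYP71B24 and CYP71B36 were below the 30th percentile, and with pseudocounts of 64 and 1 their changes were -0.83 and -1.96 for CYP71B24 and -0.82 and -1.75 for CYP71B36, called with each. CYP71B37 (-0.75), CYP71B22 (-0.58), CYP71B6 (-0.51) and CYP71B5 (-0.48) were lower in Ler too, with the highest adjusted p, 0.0167, for CYP71B22. CYP71B22 lost its call without Ler replicate 1 (adjusted p = 0.0805) and without C24 replicate 3 (adjusted p = 0.0949).

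CYP71B23 (0.55, adjusted p = 0.0111), CYP51G2 (0.51, adjusted p = 0.0293) and CYP71B34 (0.25, adjusted p = 0.0432) were higher in Ler. Each of these 3 calls was lost under some alternative. CYP71B23 lost it without C24 replicate 1 (adjusted p = 0.0514) and without Ler replicate 3 (adjusted p = 0.0643), and CYP51G2 without C24 replicate 1 (adjusted p = 0.105) or Ler replicate 1 or 2 (0.079 and 0.104). CYP71B34 lost it with either other scaling (adjusted p = 0.0949 and 0.0979). In total 3 genes were called higher in Ler and 7 lower, against 21% and 16.2% of all probe sets tested, with a median log2 change of -0.18 beside 0.06 for all probe sets. A transcript difference and a sequence difference under the probes cannot be told apart between ecotypes.

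Put in order over the 4 groups, the genes showed several patterns. CYP71B26 had 4 separate levels, from 421.9 ± 38.6 (SD, n = 4) in yda through 207 ± 25.8 (n = 3) in C24 and 129 (118.2 to 142, n = 4) in NdelYDA to 93 ± 9.25 (n = 3) in Ler, and each neighbouring pair was called. In CYP71B36 the yda level of 254.7 ± 39.3 was followed by C24 and NdelYDA, which did not differ by the test, and then by Ler at 32.5 ± 15.2. CYP71B23 had 1 high group, yda at 1107 ± 126, above Ler at 359 ± 77.8 and NdelYDA at 358.5 ± 16.4, which were not called apart, and C24 at 240.4 ± 52.9.

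CYP71B37 ran from 196 ± 68.1 in C24 through yda (118 ± 26.7) and Ler (107 ± 15.8), which were not called apart, to 52.9 ± 1.62 in NdelYDA. CYP71B34 had NdelYDA at 798 ± 41.5 above Ler at 599 ± 38.3, and then C24 (501 ± 46.7) and yda (489 ± 41.9), which were not called apart. CYP71B6 had Ler lowest at 888 ± 15.4 and NdelYDA highest at 1631 ± 86.5, with C24 (1278 ± 130) and yda (1364 ± 156) between them and not called apart. The NdelYDA and yda arrays overlapped for CYP71B6, though the fit called them apart (0.26, adjusted p = 0.0107). CYP71B29 stood near 244 to 259 in NdelYDA and Ler and at 224 ± 20.4 in C24, with no call among these groups, and at 165 ± 16.6 in yda. Within groups, the SD of the 15 genes on the log2 scale ran from 0.091 for CYP71B28 to 0.40 for CYP84A4, so the same change was easier to call in CYP71B28.

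By position, 11 of the 18 CYP71B genes lie in 1 run on chromosome 3, from CYP71B16 to CYP71B37, where the gene table lists 25 genes and 18 of them are CYP71B. Of the 11, 8 were tested. The 4 rises in yda against C24 (CYP71B23, CYP71B24, CYP71B26 and CYP71B36) all fell inside this run, while CYP71B22, just before CYP71B23, and CYP71B34, just before CYP71B35 and CYP71B36, had log2 changes of -0.02 and -0.03. Against Ler, yda was called higher for CYP71B22 (0.56) and lower for CYP71B34 (-0.29). The next gene after CYP71B36 is CYP71B37, and these neighbours were called in opposite directions in both mutants against their own controls. The yda call of CYP71B37 was lost without C24 replicate 1 and was not made against Ler (0.11). The NdelYDA call of CYP71B36 was not made against C24 (-0.09). Among the 4 tested CYP71B genes elsewhere, none was called higher in yda against C24 and 1 was lower (19.1% and 24.4% of all probe sets). Against Ler, 2 of the 4 were higher in yda and 1 lower (24.2% and 35.5% of all probe sets). In NdelYDA 3 of these 4 were higher and none lower (15.4% and 16.6% of all), with a median log2 change of 0.56. A difference between the positions was not tested.

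Inside the run, the 8 tested genes had 4 higher and 1 lower in yda against C24 (19.1% and 24.4% of all probe sets), with log2 changes from -0.64 to 2.14 and a median of 0.74. CYP71B24, among the 4, passed the filter through yda and C24 arrays alone. The lower gene, CYP71B37, was not called without C24 replicate 1. In NdelYDA the 8 genes also had 4 higher and 1 lower (15.4% and 16.6% of all), from -0.82 to 1.27 with a median of 0.40. In yda against Ler they had 6 higher and 1 lower (24.2% and 35.5% of all). In Ler against C24 they had 2 higher and 5 lower (21% and 16.2% of all). The 20 nearest tested genes outside the run, 10 on each side, had 2 higher and 9 lower in yda, 2 higher and 5 lower in NdelYDA, and 6 higher and 2 lower in Ler against C24. On chromosome 1, CYP71B28 rose in NdelYDA and was not called in yda, while CYP71B29 fell in yda and was not called in NdelYDA. The difference of effects was called for CYP71B28 (0.68) and not for CYP71B29 (0.32, adjusted p = 0.0848).

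**Figure D4:**
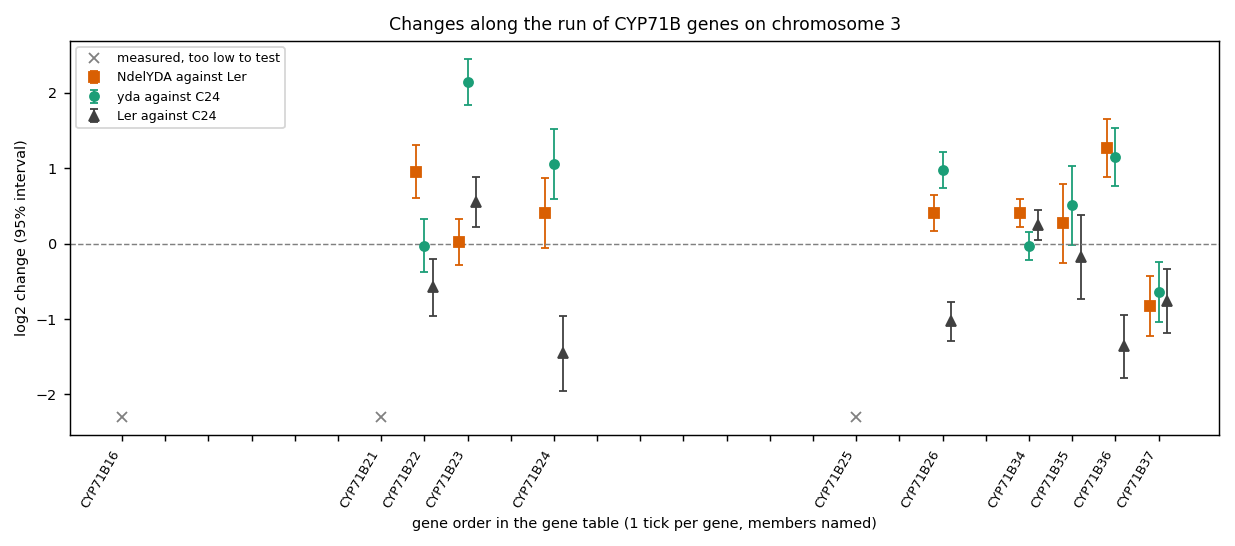
Log2 change with 95% interval (y axis) of the tested CYP71B genes along the run on chromosome 3, with 1 tick per gene in gene table order. Squares are NdelYDA against Ler, circles yda against C24 and triangles Ler against C24, and crosses at the bottom mark the 3 members with a signal too low to test. High circles at CYP71B23, CYP71B24, CYP71B26 and CYP71B36 stand beside values near 0 at CYP71B22 and CYP71B34.

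The other families gave few values. CYP78A9 was between 53.9 and 103.1 on all arrays, near the filter, and was not called in any of the 4 comparisons. CYP84A4 lay between 50.4 and 163.6, with its lowest and highest C24 values spanning those limits nearly in full, and it was not called either. Of the 3 tested genes outside CYP71B, CYP51G2 alone was called. A list of 68 P450 loci of known pathways (hormones, glucosinolates and camalexin, phenylpropanoids, cutin and wax, sterols, carotenoids and organ growth) had 1 with a probe set of its own in the probe table, CYP78A9. None of 7 loci of P450 redox partners had one. The other 67 pathway loci were not analysed here.

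The 7 genes that were not tested were close to background. CYP71B16, CYP71B21, CYP71B25, CYP71B31, CYP71B38 and CYP79A2 did not exceed the 30th percentile on any array. CYP79A2 was between 1.8 and 4.9, CYP71B31 between 1 and 12.8 and CYP71B21 between 1 and 10.7. CYP71B16 was at 3.4 to 4.4 in yda and 10.4 to 27.4 in C24, both low signals. CYP71B25 was at 33 to 36.4 in NdelYDA and 3.8 to 46.2 elsewhere, and CYP71B38 was between 42.4 and 73.2 over all groups. CYP71B27, annotated as a transcribed pseudogene, exceeded the percentile on 2 arrays, both of yda, with 95.9 and 89.7. Fitted with no filter, of these 7 genes CYP71B16 alone was called in a mutant comparison, lower in yda (log2 change -0.85, adjusted p = 0.0107), at signals too low for a level.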

How the data were processed

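The deposited table holds 1 intensity per probe set and array, not on a log scale as its range shows. Each array's mean without its lowest and highest 2% is 500, as global scaling leaves it. The software behind it is not given in the sources used here, and no detection calls were used. The platform's probe table names 1 gene for 13513 of 22810 probe sets, 503 have several genes and 8730 are unnamed. Entrez identifiers matched 13436 to TAIR10.1 loci, used for names and gene order only. No column was left unused, and no 2 arrays were identical.

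Values were tested as log2(intensity + 16) with limma 3.58.1 in R 4.3.3, in 1 fit of 4 group means over 14 arrays with an intensity trend, two-sided. P-values were adjusted by Benjamini and Hochberg's method across the 17210 probe sets that passed the filter (64 control probe sets left out). This scale understates changes of low signals. The number of arrays limits precision. The computation was tested on simulated data. Most mutant labels speak of biological replicates and the controls' are just numbered, so p-values reflect only how these samples vary, perhaps for technical reasons.

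Members and lists were chosen with earlier results of these data known. The naming rule took the largest called rises and falls of each comparison (10 each way for the mutants, 6 for the others), the extremes of CYP71, and genes called in both mutants. Genes outside it are named to account for each member. Alternatives were scaling, pseudocount, filter, arrays in the fit, variance trend, control ecotype, left-out arrays, shared-sequence probe sets and a replicate block.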

Additional observations from a re-analysis of the deposited data

Results flagged for a closer look

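The change in NdelYDA against Ler differed from that in yda against C24 past the test's threshold for 8 P450 genes. On the log2 scale the first minus the second was -2.13 for CYP71B23, -0.96 for CYP51G2, -0.57 for CYP71B26, 0.44 for CYP71B34, 0.68 for CYP71B28, 0.68 for CYP71B5, 0.77 for CYP71B6 and 0.98 for CYP71B22.

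In 8 of 44 groups of 4 arrays, 1 array stood far from the others by Dixon's test, which flags about 1 group in 20 by chance. For tested genes these were CYP71B24 in yda replicate 3 (236.5), CYP71B37 in yda replicate 3 (157.7) and CYP71B34 in yda replicate 1 (426.7). The others were low signals of genes that were not tested. They were CYP71B27 in NdelYDA replicate 4 (9.5), CYP71B38 in NdelYDA replicate 2 (59.1), CYP71B31 in NdelYDA replicate 1 (3.1), and CYP71B16 (4.4) and CYP71B21 (7.9) in yda replicate 1.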

How the results depend on the processing

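Of 1438 recomputed changes of single P450 genes, 1343 kept their direction and their side of the threshold, 38 lost and 11 gained a call, 37 that were never called changed sign and 9 were reversed. In a comparison of a pair of groups, leaving out an array of another group kept the log2 change identical. No P450 probe set was of a shared-sequence type. The 1343 therefore include many changes that could hardly differ. All 9 reversals came from the choice of control. With C24 in place of Ler, NdelYDA changes became 0.0447 for CYP51G2, -1.05 for CYP71B24, -0.62 for CYP71B26 and -0.091 for CYP71B36. With Ler in place of C24, yda changes became -0.0157 for CYP51G2, 0.56 for CYP71B22, 0.11 for CYP71B37 and 0.44 for CYP71B5. With no control, NdelYDA minus yda was -1.24 for CYP71B36, and 10207 probe sets were called in place of 5753. With the filter at the array's median, where fewer genes are tested, 4 P450 genes were called in yda against C24 in place of 7, and 6 in Ler against C24 in place of 10. In NdelYDA against Ler, 6 were called with that filter in place of 9, all 6 of them higher. With the arrays of the compared groups alone, where fewer arrays enter the fit, 6 were called in Ler against C24. Leaving out each array in turn, 7 to 9 were called in NdelYDA, 5 to 9 in yda, 7 to 10 between the ecotypes and 8 in the difference of effects.

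Same-numbered arrays of a mutant and its control deviated together by r of -0.156 to 0.0845, and those of Ler and C24 by 0.0266 to 0.16, with 2 of 3 pairs over 0.1. In each mutant comparison 1 of 6 arrays correlated best with its own number. Since not every pair was over 0.1, the numbers were not taken to pair the arrays. With a replicate block, 8 P450 genes were called in NdelYDA, without CYP51G2 (-0.43, adjusted p = 0.0931), 7 in yda, 9 between the ecotypes, without CYP71B34 (adjusted p = 0.0728), and 8 in the difference. It called 5110 probe sets in place of 5503 in NdelYDA. No P450 gene has several probe sets, so a choice among them could not be varied. Genes near the filter, such as CYP71B35, CYP78A9 and CYP84A4, had wide intervals.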
